A study of Mus musculus with 18 samples.

Results

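The response of the mouse ovary to oestradiol (E2) was compared between Pik3cd-/- and Pik3cd+/- females as the E2 change in Pik3cd-/- ovaries minus the E2 change in Pik3cd+/- ovaries, gene by gene on the log2 scale. This difference of differences, the interaction of E2 and genotype, used 12 of the 18 arrays of the study, picked by their labels alone, and was tested for 12711 genes. The 4 groups of 3 arrays were Pik3cd-/- ovaries after E2, untreated Pik3cd-/- ovaries, Pik3cd+/- ovaries after E2 and untreated Pik3cd+/- ovaries. All mice were females of a C57B6J/S129 background labelled as 21 days old, and total RNA of their ovaries was hybridised to Affymetrix arrays. E2 was given intraperitoneally 3 times at intervals of 24 hours in a volume of 0.03 ml, and the ovaries were taken 72 hours after the start. The labels give neither the concentration of E2 nor a vehicle-injected group, so the injections and the passage of time are part of each E2 change. The comparison genotype carried a single working copy of Pik3cd, and the labels name no Cre line or promoter that would restrict the loss to a cell type. A negative interaction means that the E2 change was lower in Pik3cd-/- ovaries than in Pik3cd+/- ovaries, and a positive interaction that it was higher.

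The product of Pik3cd, p110 delta, is one of the catalytic subunits of phosphoinositide 3-kinase (PI3K) and is best known from leukocytes. PI3K activates the kinase AKT, which phosphorylates FoxO transcription factors and keeps them out of the nucleus, so that FoxO targets such as the insulin receptor are expressed more when the pathway is less active. E2, made by the granulosa cells of growing follicles, acts there mainly through the receptor ESR2 and supports granulosa proliferation and follicle growth. The interaction addresses which E2 targets depended on Pik3cd, the question the study set with a rule of at least a 2-fold change.

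The 12 arrays had median signals of 48.9 to 50.8 intensity units, and each correlated with the arrays of its own group at a mean r of 0.989 to 0.996. Ovarian markers were bright on all arrays: Inha, the inhibin alpha subunit of granulosa cells, lay between 7929 and 12260 units and Gdf9, an oocyte growth factor, between 3231 and 8190. Several arrays stood apart in marker genes. Pik3cd-/- E2 replicate 2 had a mean of 6.33 over 10 adipocyte genes on the log2 scale, against 8.45 to 10.50 on the other 11 arrays, and it was also lowest in macrophage, smooth muscle and stromal genes. Pik3cd-/- E2 replicate 3 had a mean of 9.54 over 31 oocyte genes, against 10.34 and 10.40 on its group mates. Untreated Pik3cd-/- replicate 2 was lowest in 26 granulosa genes, at 9.81 against 10.12 to 10.52 elsewhere. Untreated Pik3cd+/- replicate 2 was highest in 10 oviduct genes, at 8.05 against 5.91 to 7.02. Because whole ovaries were measured, fewer cells of a type and less RNA per cell cannot be told apart in any value given here. Nothing beyond the label "biological" says how animals were assigned to arrays, so p-values measure the spread between these arrays.

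The targeted gene was read by 6 probe sets. The clearest of them gave 19.1, 27.6 and 20.5 units in Pik3cd-/- ovaries after E2, 28.8, 23.8 and 26.0 in untreated Pik3cd-/- ovaries, 71.2, 66.9 and 73.1 in Pik3cd+/- ovaries after E2 and 70.03, 69.8 and 61.4 in untreated Pik3cd+/- ovaries. All 6 Pik3cd-/- arrays were below all 6 Pik3cd+/- arrays, as labelled. The interaction at this probe set was -0.24 ± 0.14 (log2, SE of the limma model, as for every interaction below). At the brightest probe set, which stood for Pik3cd in the gene tests, it was 0.08 ± 0.20, with overlapping signals in the 2 genotypes. The largest of the 6 in size was -0.46 ± 0.13, at a dim probe set (limma adjusted p = 0.566 in a fit of every probe set). That probe set gave 41.8, 41.8 and 35.8 units in Pik3cd-/- ovaries after E2 and 37.0, 41.8 and 46.3 untreated. In Pik3cd+/- ovaries it gave 54.5, 43.7 and 54.5 after E2 and 34.8, 38.9 and 34.9 untreated.

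No gene passed the interaction test at an adjusted p under 0.05 (limma, Benjamini-Hochberg over 12711 genes; 0 called, 0% of genes), and the smallest adjusted p was 0.25. At an unadjusted p under 0.05 there were 924 genes, 7.27% of those tested, of which 718 (5.65%) were negative and 206 (1.62%) positive. Other fits called 0 or 1 gene, with the exception of the fit without Pik3cd-/- E2 replicate 3, which called 71. Over all tested genes the median interaction was -0.05 and 60.4% of genes lay below 0. The negative share of the genes with an unadjusted p under 0.05 was 77.7%, against 61.0% after quantile normalization, 59.4% with no filter on dim genes and 58.6% without replicate 2 of the E2 and untreated Pik3cd-/- groups, so the lean to negative values varied with scaling, filter and arrays. An interaction of -1 or lower was seen in 53 genes and of 1 or higher in 15, and the median SE was 0.16.

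**Figure D1:**
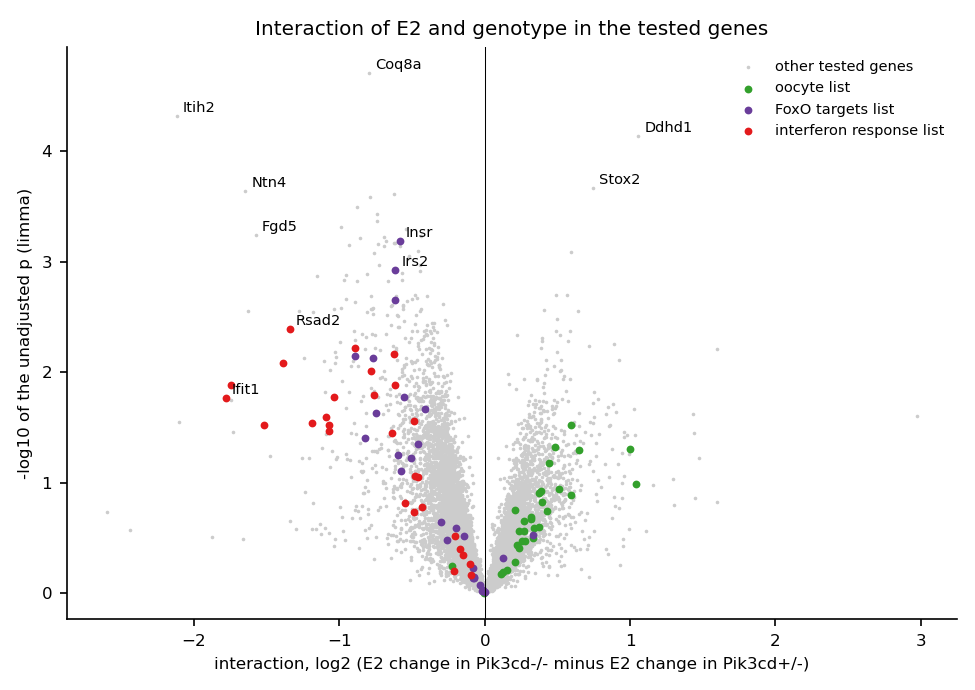
Each point is 1 of 12711 tested genes, with the interaction on the x axis (log2) and -log10 of the unadjusted limma p on the y axis. Members of 3 lists are coloured. Interferon response genes (red) all lie left of 0, FoxO targets (purple) mostly so, and oocyte genes (green) mostly to the right, while no gene passes after adjustment.

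The smallest p-values on the negative side belonged to genes whose E2 change was positive in Pik3cd+/- ovaries and near or below 0 in Pik3cd-/- ovaries. Coq8a, an atypical kinase needed for coenzyme Q synthesis, gave 345, 366 and 376 units in Pik3cd-/- ovaries after E2 and 375, 461 and 404 in untreated Pik3cd-/- ovaries, against 657, 602 and 736 in Pik3cd+/- ovaries after E2 and 450, 448 and 392 in untreated Pik3cd+/- ovaries. Its interaction was -0.80 ± 0.13 (limma adjusted p = 0.25). The 3 Pik3cd+/- arrays after E2 lay above all 9 others. Itih2, a heavy chain of the inter-alpha-trypsin inhibitor that can be linked to hyaluronan, gave 109, 68.6 and 89.8 units in Pik3cd-/- ovaries after E2 and 129, 171 and 85.7 untreated, against 476, 321 and 318 in Pik3cd+/- ovaries after E2 and 124, 136 and 78.9 untreated. Its interaction was -2.12 ± 0.38 (limma adjusted p = 0.306), and again only the Pik3cd+/- arrays after E2 were high. Ntn4, a secreted netrin of basement membranes, gave 535, 479 and 477 units in Pik3cd-/- ovaries after E2 and 454, 642 and 523 untreated, against 1142, 1091 and 1056 in Pik3cd+/- ovaries after E2 and 357, 394 and 359 untreated (interaction -1.65 ± 0.35, limma adjusted p = 0.386). Here too the groups did not overlap between Pik3cd+/- ovaries after E2 and the rest.

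The other 7 of the 10 negative genes had interactions between -0.99 and -0.54. Fhdc1, a formin that acts on microtubules and actin, gave 233, 308 and 293 units in Pik3cd-/- ovaries after E2 and 254, 339 and 305 untreated, against 821, 621 and 708 in Pik3cd+/- ovaries after E2 and 381, 443 and 329 untreated (interaction -0.99 ± 0.23). Vit, the matrix protein vitrin, had an interaction of -0.88 ± 0.19. P3h2, a prolyl hydroxylase of collagen chains, had -0.63 ± 0.13, and Hip1, a clathrin adaptor, -0.54 ± 0.12. In these 4 genes the Pik3cd+/- arrays after E2 were again above the 9 others. Genes picked by a small interaction p, or after their values were seen, tend to separate in this way by that choice. The share of all tested genes with such separation was not counted, for the genes above or those below. Prkd1, the kinase PKD1, had an interaction of -0.79 ± 0.17 and Ghitm, a protein of the inner mitochondrial membrane, one of -0.74 ± 0.16, with overlap between Pik3cd+/- ovaries after E2 and untreated Pik3cd-/- ovaries. Bcan, the proteoglycan brevican, had -0.74 ± 0.17, at 176 to 224 units in Pik3cd-/- ovaries after E2 and 226 to 244 untreated, against 143 to 190 in Pik3cd+/- ovaries after E2 and 99.8 to 131 untreated, and was thus lowest in untreated Pik3cd+/- ovaries. A pair of genes outside the naming rule, chosen after their values were seen, showed the same pattern as Coq8a. Fgd5, an exchange factor of endothelial cells, gave 194, 100 and 289 units in Pik3cd-/- ovaries after E2, against 663, 664 and 566 in Pik3cd+/- ovaries after E2, with an interaction of -1.58 ± 0.37. Rarg, a retinoic acid receptor, had -0.69 ± 0.16.

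On the positive side the leading genes were lower after E2 in Pik3cd+/- ovaries and level or higher in Pik3cd-/- ovaries. Ddhd1, a phospholipase that cleaves phosphatidic acid, gave 377, 406 and 372 units in Pik3cd-/- ovaries after E2 and 311, 239 and 262 untreated, against 337, 374 and 267 in Pik3cd+/- ovaries after E2 and 463, 473 and 498 untreated. Its interaction was 1.06 ± 0.20 (limma adjusted p = 0.309). All Pik3cd-/- E2 arrays lay above the untreated Pik3cd-/- arrays, and all Pik3cd+/- E2 arrays below the untreated Pik3cd+/- arrays. Stox2, a winged-helix protein, gave 1226, 1403 and 1317 units in Pik3cd-/- ovaries after E2 and 1344, 992 and 1257 untreated, against 1277, 981 and 1012 in Pik3cd+/- ovaries after E2 and 1577, 1703 and 1662 untreated (0.75 ± 0.16, limma adjusted p = 0.386). Only the untreated Pik3cd+/- arrays stood out, as the highest 3 of the 12.

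The other 8 positive genes had interactions between 0.41 and 0.64. Tcl1b3, of a family of AKT-binding proteins found in oocytes and early embryos, gave 843, 919 and 820 units in Pik3cd-/- ovaries after E2 and 722, 635 and 650 untreated, against 635, 648 and 622 in Pik3cd+/- ovaries after E2 and 633, 794 and 790 untreated (0.57 ± 0.15). Its Pik3cd-/- E2 arrays were the highest of the 12. Tcf21, a transcription factor of stromal cells, had an interaction of 0.41 ± 0.11, and Col8a1, a short-chain collagen, 0.64 ± 0.18. The E2 change of Tcf21 was -0.12 in Pik3cd-/- ovaries and -0.53 in Pik3cd+/- ovaries, and that of Col8a1 -0.06 and -0.70 in the same order. Slc25a42, a mitochondrial carrier of coenzyme A, had 0.58 ± 0.17. Fam25c (0.60 ± 0.14), the synaptic organiser Cbln1 (0.49 ± 0.13), the neurokinin receptor Tacr3 (0.50 ± 0.14) and the interleukin-1 family member Il1f10 (0.49 ± 0.15) were all dim. Of the 4 groups, untreated Pik3cd+/- ovaries alone brought Il1f10 above the limit on dim genes, so its rank depends on the group where it was high. Cbln1 was above that limit only in Pik3cd-/- ovaries after E2 (mean 59.6 units) and untreated Pik3cd+/- ovaries (60.8). It averaged 49.3 in untreated Pik3cd-/- ovaries and 49.5 in Pik3cd+/- ovaries after E2. The rank of Cbln1 thus also depends on the groups where it was high.

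**Figure D2:**
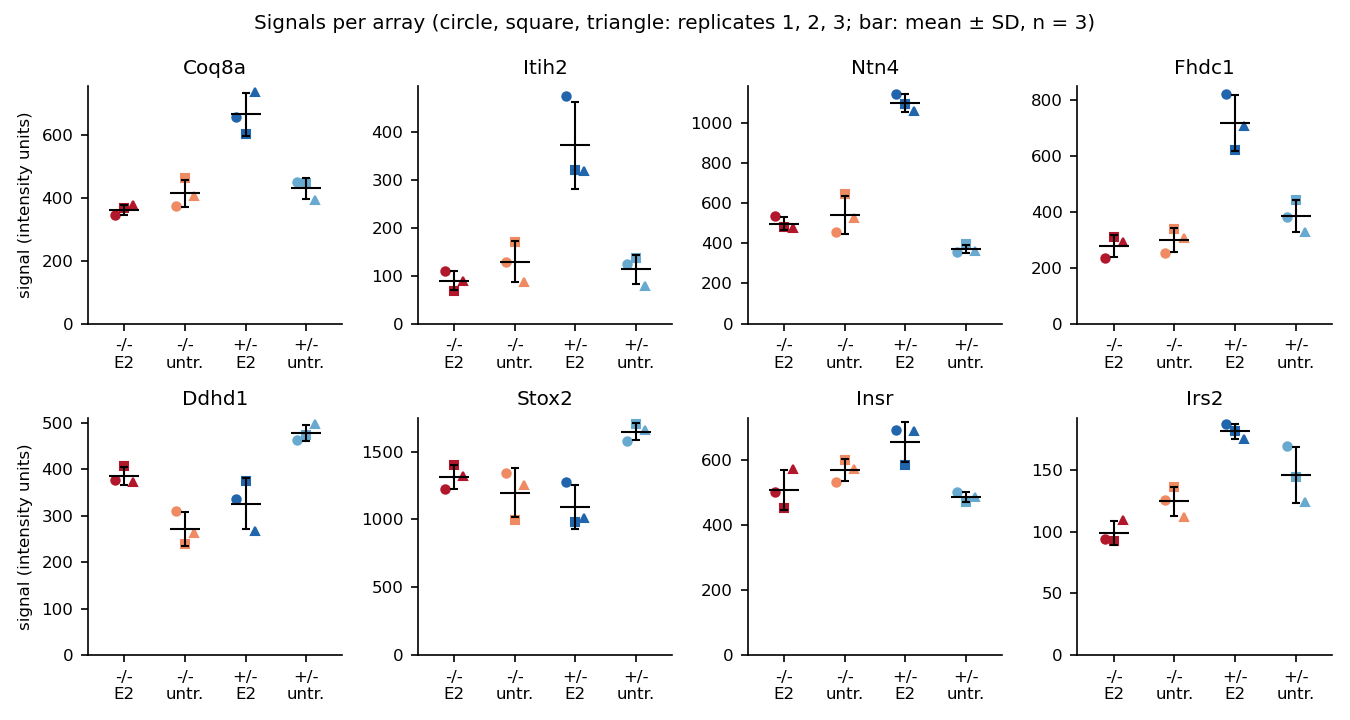
Signals in intensity units (y axis, linear, from 0) of 8 genes on the 12 arrays, by group (x axis), with the mean and SD of 3 arrays. Coq8a, Itih2, Ntn4, Fhdc1 and Irs2 are highest on the 3 Pik3cd+/- arrays after E2, while Ddhd1 and Stox2 are highest in untreated Pik3cd+/- ovaries. Insr overlaps between Pik3cd+/- ovaries after E2 and untreated Pik3cd-/- ovaries.

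Of 28 tested components of the PI3K pathway 20 were below 0, against 60.4% of all genes, and 4 had an unadjusted p under 0.05, all negative, against 5.65% of all genes. None passed after adjustment. The 4 were the insulin receptor, its substrate IRS2, the IGF1 receptor and the regulatory subunit p85 alpha. Insr gave 501, 450 and 571 units in Pik3cd-/- ovaries after E2 and 533, 600 and 572 untreated, against 692, 583 and 688 in Pik3cd+/- ovaries after E2 and 502, 471 and 485 untreated (interaction -0.58 ± 0.14, rank 18 of all genes, limma adjusted p = 0.386). The E2 arrays lay above the untreated ones in Pik3cd+/- ovaries, and the 2 groups of Pik3cd-/- arrays overlapped. Irs2 gave 94.2, 92.6 and 110 units in Pik3cd-/- ovaries after E2 and 126, 136 and 112 untreated, against 187, 182 and 175 in Pik3cd+/- ovaries after E2 and 169, 144 and 124 untreated (-0.61 ± 0.16, rank 32). E2 arrays were the lower ones in Pik3cd-/- ovaries and the higher ones in Pik3cd+/- ovaries, without overlap in either genotype.

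Igf1r had an interaction of -0.36 ± 0.11, with 1166, 1266 and 1357 units in Pik3cd-/- ovaries after E2 against 1598, 1524 and 1685 in Pik3cd+/- ovaries after E2. Pik3r1, which encodes p85 alpha, had -0.51 ± 0.22, with an E2 change of -0.50 in Pik3cd-/- ovaries against 0.00 in Pik3cd+/- ovaries. The interaction of Pik3r1 was -0.31 without Pik3cd-/- E2 replicate 2 and -0.17 without replicate 2 of the E2 and untreated Pik3cd-/- groups. Pik3ip1, a membrane inhibitor of PI3K that was not in the list and was chosen after its values were seen, gave 553, 526 and 558 units in Pik3cd-/- ovaries after E2 and 475, 752 and 535 untreated, against 1371, 1303 and 1157 in Pik3cd+/- ovaries after E2 and 666, 705 and 458 untreated (-1.15 ± 0.30). Its Pik3cd+/- E2 arrays lay above all others. Among the kinases, the catalytic subunit gene Pik3ca had -0.27, Mtor -0.23, Akt2 -0.18, Akt1 -0.01 and Pdpk1 0.00. Irs1, the other insulin receptor substrate of the list, had 0.00 and the receptor adaptor Grb10 -0.03. Pik3cg, the catalytic subunit of leukocyte p110 gamma, was the largest on the positive side at 0.74, with an unadjusted p of 0.0785. The list median was -0.09, near the -0.05 of all genes.

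FoxO targets as a list leaned further. Of 27 tested genes 24 had an interaction below 0, against 60.4% of all genes, the median was -0.30, and 10 had an unadjusted p under 0.05, all negative, against 5.65% of all genes. None passed after adjustment. Averaged over the list, the arrays stood at 9.02, 8.84 and 9.11 in Pik3cd-/- ovaries after E2 and 9.07, 9.14 and 9.001 untreated, against 9.38, 9.27 and 9.27 in Pik3cd+/- ovaries after E2 and 9.07, 9.11 and 8.98 untreated (log2). Only Pik3cd+/- ovaries after E2 stood above the rest. Besides Insr and Irs2, the members with the smallest p were Cited2, a transcriptional coregulator, at -0.62 ± 0.17 and Gadd45a, a stress sensor of the cell cycle, at -0.89 ± 0.29. Gadd45a gave 396, 319 and 509 units in Pik3cd-/- ovaries after E2 and 392, 464 and 474 untreated, against 817, 827 and 679 in Pik3cd+/- ovaries after E2 and 454, 476 and 432 untreated. Its groups did not overlap between Pik3cd+/- ovaries after E2 and the others.

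Further negative members were the proapoptotic Bcl2l11 (-0.77), the kinase Pdk4 that restrains pyruvate oxidation (-0.82), Igfbp1, a binding protein of IGF1 (-0.74), the autophagy gene Gabarapl1 (-0.56), the cell-cycle inhibitor Cdkn1a (-0.41) and Sesn1, a brake on mTORC1 (-0.46). Cat, the catalase (0.34), Tnfsf10 (0.13) and Ccng2 (0.01) were the 3 above 0, and Klf2, Sod2 and Bcl6 lay between -0.04 and -0.01. The transcription factor genes themselves had -0.08 ± 0.22 for Foxo1 and -0.25 ± 0.12 for Foxo3, the latter near the list median of -0.30. Foxo1 itself gave 2263 to 3526 units in Pik3cd-/- ovaries after E2 and 2104 to 3136 untreated, against 4411 to 4779 in Pik3cd+/- ovaries after E2 and 3735 to 3837 untreated. The FoxO median stayed below 0 under all alternatives tried, from -0.44 to -0.17, and was -0.17, with 7 members at an unadjusted p under 0.05, without replicate 2 of the E2 and untreated Pik3cd-/- groups. Insr, Irs2 and Foxo1 belong to this list and to that of the pathway, so the 2 lists are not separate evidence.

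Immediate early genes, whose transcription responds within minutes to growth factors, had a median of -0.25. Of 21 tested, 17 were below 0, against 60.4% of all genes, and 4 had an unadjusted p under 0.05, all negative, against 5.65% of all genes. None passed after adjustment, and the median was -0.13 without replicate 2 of the E2 and untreated Pik3cd-/- groups. The list averaged 7.93, 7.85 and 8.08 in Pik3cd-/- ovaries after E2 and 7.76, 7.92 and 7.82 untreated, against 8.43, 8.40 and 8.38 in Pik3cd+/- ovaries after E2 and 8.02, 8.05 and 7.91 untreated (log2). The Pik3cd+/- E2 arrays lay above all 9 others and close to each other. Jun, a subunit of the AP-1 factor, gave 516, 439 and 651 units in Pik3cd-/- ovaries after E2 and 450, 477 and 482 untreated, against 830, 869 and 1047 in Pik3cd+/- ovaries after E2 and 378, 599 and 451 untreated (interaction -0.78 ± 0.22). The antiproliferative gene Btg2 had -0.78 ± 0.21. The stress-induced Gadd45b had -1.02 ± 0.33, and Maff, a small Maf factor, -0.61 ± 0.19, each with Pik3cd+/- E2 arrays above the rest. Fos (-0.23), Atf3 (-0.01) and Nr4a1 (-0.12) were not among those 4, and Egr3 (0.25) and Klf4 (0.21) were above 0.

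Interferon response genes had the lowest list median of any list that kept its sign under every alternative. All 28 tested genes were below 0, against 60.4% of all genes, with a median of -0.63, and 17 had an unadjusted p under 0.05, against 5.65% of all genes. None passed after adjustment, and the smallest limma adjusted p in the list was 0.543. Averaged over the list, the arrays stood at 7.77, 7.55 and 7.81 in Pik3cd-/- ovaries after E2 and 7.60, 7.67 and 7.42 untreated, against 8.16, 8.55 and 8.56 in Pik3cd+/- ovaries after E2 and 7.70, 7.55 and 7.30 untreated (log2). The 3 Pik3cd+/- arrays after E2 lay above all 9 others. The genes of the list are known to be induced together, so its count is not one of independent genes.

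The promoters of 4 members are shown, picked by a small interaction p from those that carry the interferon response element core. Sequences are the 250 bases upstream of the annotated start, from RefSeq in build GRCm38.p6, written 5′ to 3′ along the gene's strand, with matches to the element's core (GAAA, any 2 bases, GAAA) on either strand in capitals.
Rsad2: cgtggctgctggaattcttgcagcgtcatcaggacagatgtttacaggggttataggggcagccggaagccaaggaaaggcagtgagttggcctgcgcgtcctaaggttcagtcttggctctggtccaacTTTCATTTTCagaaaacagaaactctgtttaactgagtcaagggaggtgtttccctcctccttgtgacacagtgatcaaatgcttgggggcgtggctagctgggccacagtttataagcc
Ifit3: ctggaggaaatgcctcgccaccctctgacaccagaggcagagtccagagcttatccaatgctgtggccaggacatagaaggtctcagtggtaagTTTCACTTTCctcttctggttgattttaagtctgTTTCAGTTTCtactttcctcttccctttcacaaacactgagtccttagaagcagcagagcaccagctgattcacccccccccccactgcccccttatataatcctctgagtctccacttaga
Ifit1: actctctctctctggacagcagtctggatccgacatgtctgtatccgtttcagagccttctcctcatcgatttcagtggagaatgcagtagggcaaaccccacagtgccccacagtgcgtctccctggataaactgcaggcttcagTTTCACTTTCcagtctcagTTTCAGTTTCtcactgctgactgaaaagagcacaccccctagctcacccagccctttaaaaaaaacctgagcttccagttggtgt
Gbp3: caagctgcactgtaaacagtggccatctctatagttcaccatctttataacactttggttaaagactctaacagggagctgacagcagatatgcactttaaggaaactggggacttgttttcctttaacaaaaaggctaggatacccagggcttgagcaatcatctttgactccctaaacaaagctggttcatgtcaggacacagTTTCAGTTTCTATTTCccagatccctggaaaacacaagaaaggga
They lie at chr12:26456453-26456702 on the minus strand (Rsad2) and, on the plus strand, at chr19:34583279-34583528 (Ifit3), chr19:34640639-34640888 (Ifit1) and chr3:142559794-142560043 (Gbp3). The match begins at position -120 from the start in Rsad2, and the outermost of 2 matches at -156 in Ifit3, -104 in Ifit1 and -45 in Gbp3. Of the 21 interferon response genes with a promoter sequence, 11 (52.4%) held the motif, against 303 of 10253 tested genes (2.96%). A match describes the letters of this window and no binding was measured.

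Rsad2, the antiviral enzyme viperin, gave 195, 126 and 298 units in Pik3cd-/- ovaries after E2 and 194, 297 and 181 untreated, against 372, 457 and 539 in Pik3cd+/- ovaries after E2 and 215, 207 and 165 untreated (interaction -1.34 ± 0.40, limma adjusted p = 0.543). Ifit1, which binds viral RNA, gave 137, 57.5 and 109 units in Pik3cd-/- ovaries after E2 and 85.5, 91.9 and 69.9 untreated, against 261, 419 and 398 in Pik3cd+/- ovaries after E2 and 131, 84.7 and 49.8 untreated (-1.78 ± 0.67). Ifit3, its partner, gave 175, 83.0 and 147 units in Pik3cd-/- ovaries after E2 and 135, 171 and 124 untreated, against 261, 483 and 424 in Pik3cd+/- ovaries after E2 and 205, 105 and 73.1 untreated (-1.75 ± 0.62). In all 3 genes the Pik3cd+/- E2 arrays were above the others, replicate 1 being the lowest of them.

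The regulators of the response took the same order. Irf7, a transcription factor that amplifies interferon production, gave 106, 74.0 and 110 units in Pik3cd-/- ovaries after E2 and 72.9, 79.3 and 59.9 untreated, against 156, 244 and 276 in Pik3cd+/- ovaries after E2 and 83.9, 94.4 and 47.4 untreated (-1.09 ± 0.44). Usp18, which damps signalling at the interferon receptor, had -1.52 ± 0.64, and Irf9, a subunit of the factor that binds interferon response elements, -0.78 ± 0.27. Stat2, another subunit of that factor, had -0.15 ± 0.19. The RNA sensors Ifih1 and Ddx58 had -1.04 and -0.62, the mitochondrial protein Ifi27 had -0.89, and the proapoptotic Xaf1 -1.39, with the sign turned to 4.16 when its most variable probe set stood for it. Members nearest 0 were Zbp1 (-0.09) and Mx2 (-0.10).

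Markers of immune cells were followed beside these genes. The 23 tested macrophage genes averaged 7.62, 6.55 and 8.09 in Pik3cd-/- ovaries after E2 and 7.19, 7.72 and 6.99 untreated, against 7.35, 7.32 and 7.28 in Pik3cd+/- ovaries after E2 and 6.79, 6.91 and 6.68 untreated (log2). Of them 22 were below 0 in the interaction, against 60.4% of all genes, and none had an unadjusted p under 0.05, against 5.65% of all genes on the negative side. Every Pik3cd+/- E2 array was above every untreated Pik3cd+/- array in this list, while 2 Pik3cd-/- E2 arrays exceeded every Pik3cd+/- E2 array. The part of macrophages in the interferon values was not tested. Without Pik3cd-/- E2 replicate 2 the macrophage median was 0.02, against -0.41 with it, while that of interferon response genes was -0.63 either way. Without replicate 2 of the E2 and untreated Pik3cd-/- groups it was -0.55, but with 5 members at an unadjusted p under 0.05 in place of 17. The 7 tested lymphocyte genes had a median of 0.17.

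**Figure D3:**
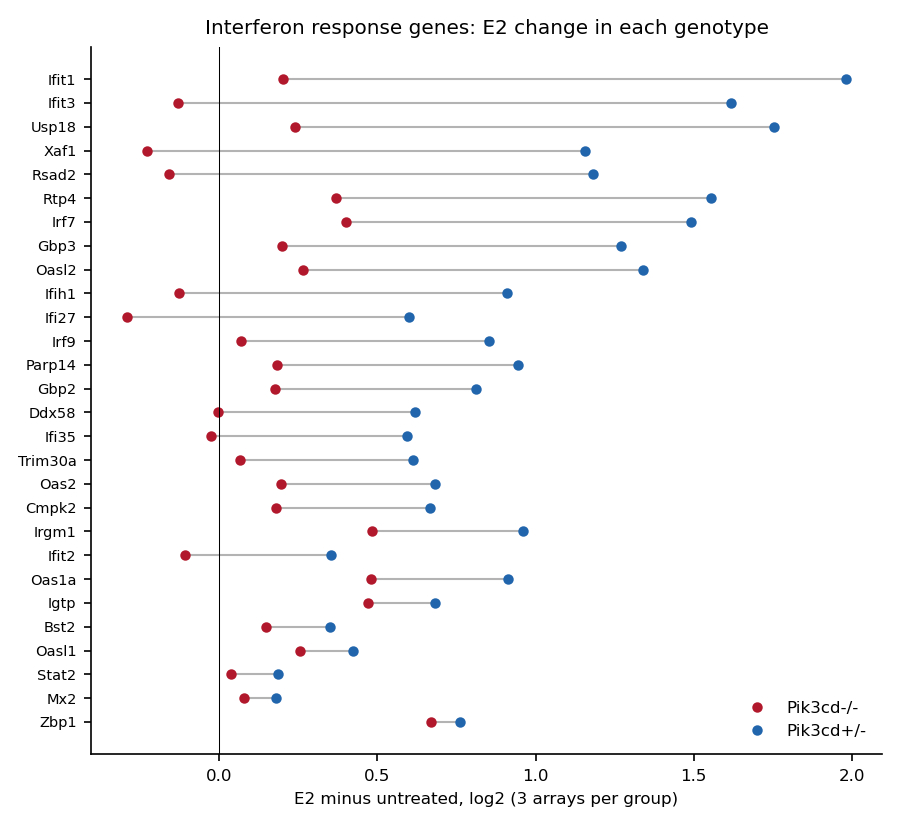
E2 change (E2 minus untreated, log2, x axis) of the 28 tested interferon response genes in Pik3cd-/- (red) and Pik3cd+/- (blue) ovaries, joined by a line whose length is the interaction. Every blue point lies to the right of its red point, from Ifit1 at the top to Zbp1 at the bottom.

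Oocyte genes leaned the other way. Of 31 tested, 29 were above 0, against 39.6% of all genes, with a median of 0.32, and 3 had an unadjusted p under 0.05, against 1.62% of all genes. The list averaged 10.34, 10.40 and 9.54 in Pik3cd-/- ovaries after E2 and 10.23, 10.44 and 10.32 untreated, against 9.26, 9.11 and 9.13 in Pik3cd+/- ovaries after E2 and 9.83, 9.78 and 9.68 untreated (log2). Thus E2 arrays lay below untreated arrays in all 3 replicates of Pik3cd+/- ovaries, and in Pik3cd-/- ovaries only replicate 3 was low. Nlrp14, an oocyte protein of the NLR family, gave 6149, 5859 and 3036 units in Pik3cd-/- ovaries after E2 and 5298, 4964 and 4811 untreated, against 2233, 2135 and 2334 in Pik3cd+/- ovaries after E2 and 3634, 3508 and 3494 untreated (0.60 ± 0.25). Zp3, the zona pellucida protein that sperm bind, gave 5289, 5619 and 2963 units in Pik3cd-/- ovaries after E2 and 4625, 5043 and 4807 untreated, against 2040, 1900 and 1974 in Pik3cd+/- ovaries after E2 and 2928, 3213 and 2862 untreated (0.49 ± 0.23). In both genes a single array, Pik3cd-/- E2 replicate 3, lay far below its group mates.

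That array decided whether oocyte genes were called. Without it 71 genes passed the interaction test (limma, adjusted p under 0.05, 0.557% of genes), 56 positive and 15 negative. In that fit the oocyte median was 0.62, and 27 of 31 oocyte genes had an unadjusted p under 0.05, against 14.5% of all genes. Because the array was the lowest of its group in oocyte genes, leaving it out had to raise the list. The 4 oocyte genes called were Nlrp14 (0.92), Zp3 (0.78), H1f8, the oocyte linker histone (0.81), and Gdf9 (0.67). Outside the list and chosen after their values were seen, Nlrp4a, Nlrp4f, Nlrp4b, Oog4, Oosp2, Wee2 and Pou5f1, genes known from oocytes or germ cells, were called too, with values between 0.77 and 1.03. Coq8a, Itih2, Ddhd1, Insr, Vit, Ghitm, Fgd5 and Rarg were also called in that fit. Without Pik3cd-/- E2 replicate 2 the oocyte median was 0.17 and no member had an unadjusted p under 0.05.

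**Figure D4:**
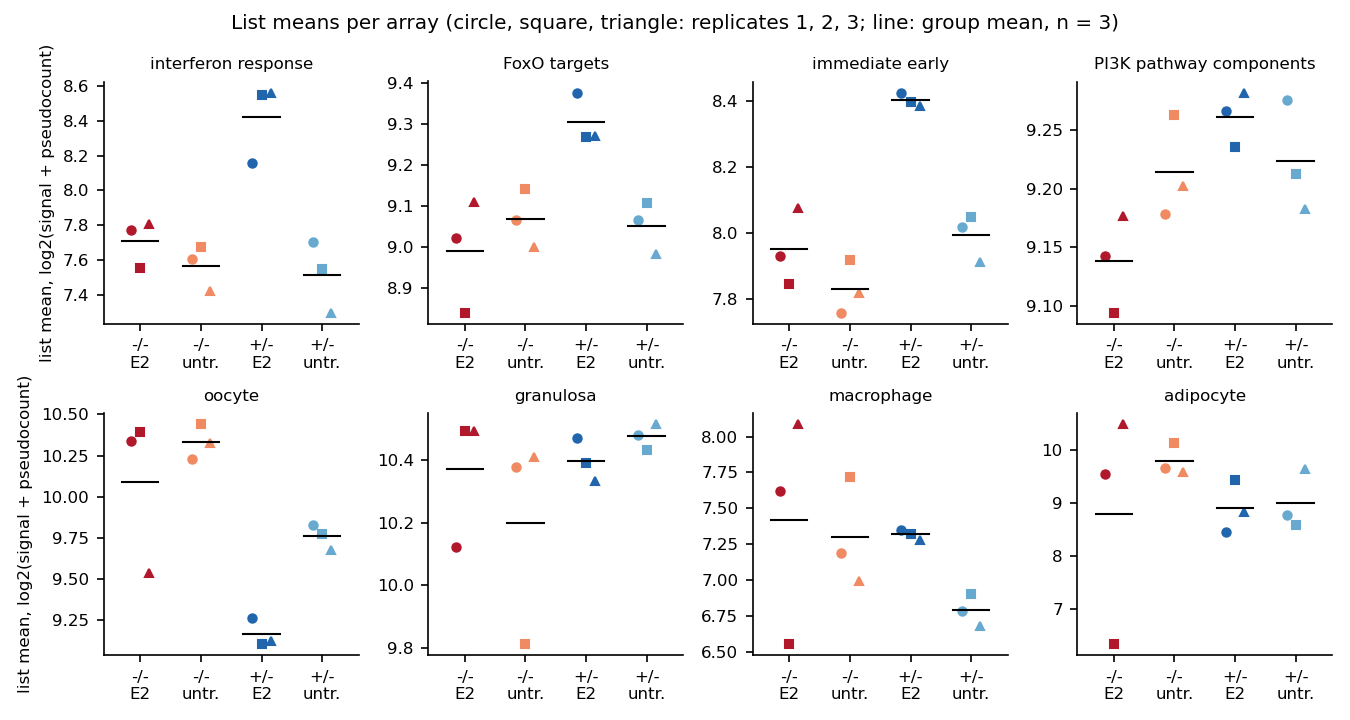
Mean log2 signal of 8 gene lists (y axis, a separate scale for each list) on each of the 12 arrays, by group (x axis), with group means. Interferon response, FoxO and immediate early genes are highest on the 3 Pik3cd+/- arrays after E2. Oocyte genes are lowest there, and macrophage and adipocyte genes are spread over a wide range in Pik3cd-/- ovaries after E2.

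Granulosa genes had a median of 0.24, with 17 of 26 above 0, against 39.6% of all genes, and 1 positive at an unadjusted p under 0.05, against 1.62%. That gene was Ccnd2, the D-type cyclin through which FSH and E2 drive granulosa proliferation. It gave 2594, 3342 and 3109 units in Pik3cd-/- ovaries after E2 and 2689, 2046 and 2724 untreated, against 2884, 3382 and 3016 in Pik3cd+/- ovaries after E2 and 3581, 3242 and 3383 untreated (0.42 ± 0.18). The lowest array was untreated Pik3cd-/- replicate 2, and without it the granulosa median was 0.00. Inhba, a subunit of activin and inhibin A, had 0.95 ± 0.93 and turned to -0.09 without that array. Fshr, the FSH receptor, had 0.31 ± 0.43, Inha 0.16 ± 0.17, and Amh, the anti-Müllerian hormone of growing follicles, -0.02 ± 0.19. Kitl, the KIT ligand that granulosa cells present to the oocyte, had 0.31 ± 0.20, and its receptor gene Kit 0.15 ± 0.29.

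Of 21 tested targets of oestrogen 14 were above 0, against 39.6% of all genes, with a median of 0.11 against -0.05 for all genes. Their median E2 change was below 0 in both genotypes, at -0.12 in Pik3cd-/- ovaries and -0.11 in Pik3cd+/- ovaries. The positive median interaction therefore does not describe a larger rise of the list after E2. The single gene with an unadjusted p under 0.05 was Cdca7 (0.52 ± 0.18), a MYC-responsive cell-cycle gene. Of all genes 1.62% were positive at that p. The receptor genes had 0.02 ± 0.33 for Esr1 and -0.29 ± 0.22 for Esr2. Pgr, the progesterone receptor and a classical oestrogen target, had -0.00 ± 0.83, with 67.5 to 511 units in Pik3cd-/- ovaries after E2, so that its interval spans large differences in either direction. The palindromic oestrogen response element (GGTCA, any 3 bases, TGACC) was in 0 of 10253 promoters of tested genes.

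Steroidogenic genes varied widely between replicates. Cyp17a1, which makes androgens in theca cells, gave 46.9, 71.9 and 112 units in Pik3cd-/- ovaries after E2 and 666, 194 and 137 untreated, against 730, 220 and 105 in Pik3cd+/- ovaries after E2 and 315, 664 and 417 untreated (-0.98 ± 0.86). Without Pik3cd+/- E2 replicate 1 its interaction was -0.25, and without Pik3cd+/- E2 replicate 3 it was -1.60. Cyp11a1, the side-chain cleavage enzyme, had -0.86 ± 0.65, which was also -0.25 without Pik3cd+/- E2 replicate 1. Star, which moves cholesterol into mitochondria, had 0.44 ± 0.79. Hsd3b1, which makes progesterone, was steadier, at 8432, 7579 and 7756 units in Pik3cd-/- ovaries after E2 and 11176, 8171 and 10165 untreated, against 7637, 5305 and 5055 in Pik3cd+/- ovaries after E2 and 9842, 10059 and 10655 untreated (0.49 ± 0.19). Its E2 arrays lay below the untreated ones in Pik3cd+/- ovaries, and the Pik3cd-/- groups overlapped.

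Smooth muscle genes had a median of -0.54. All 14 tested were below 0, against 60.4% of all genes, and 5 had an unadjusted p under 0.05, against 5.65%. The median kept its sign under every alternative tried, with -0.68 to -0.25 when each array was left out, while without Pik3cd-/- E2 replicate 2 no member had an unadjusted p under 0.05. Adipocyte genes had a median of -0.67 and MHC class II genes of -0.30, and both changed sign when certain arrays were left out. Adipoq, the adipocyte hormone adiponectin, gave 1355, 11.5 and 3682 units in Pik3cd-/- ovaries after E2 and 1787, 3028 and 1438 untreated, against 306, 1409 and 606 in Pik3cd+/- ovaries after E2 and 556, 463 and 1605 untreated (-1.88 ± 1.80). Without Pik3cd-/- E2 replicate 2, the array with 11.5 units, the medians were 0.30 for adipocyte, -0.25 for smooth muscle and 0.13 for stromal genes, the last being -0.16 with it. Oviduct genes had a median of 0.37, which was -0.13 without untreated Pik3cd+/- replicate 2.

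**Figure D5:**
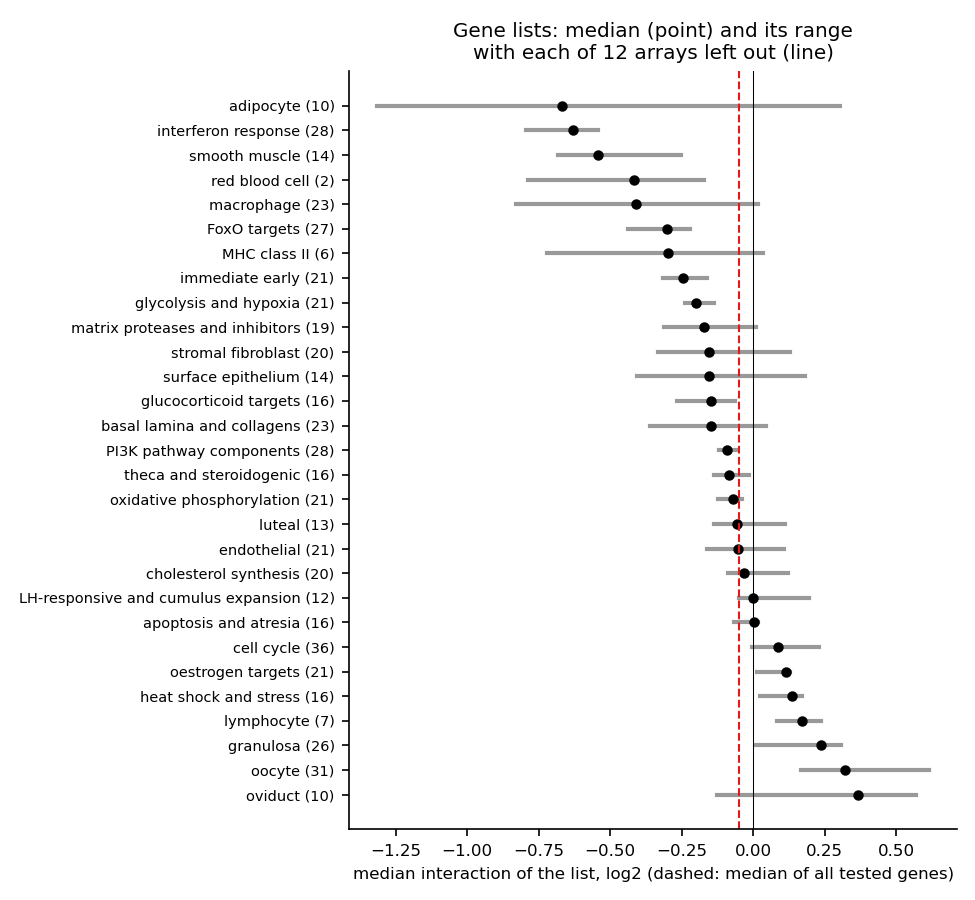
Median interaction (log2, x axis) of each of 29 gene lists (points, number of tested genes in brackets) with its range when each of the 12 arrays is left out in turn (lines). The interferon response, FoxO, immediate early and PI3K lines stay left of 0 and the oocyte line right of it, while the adipocyte, macrophage and oviduct lines cross 0.

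The interaction was also read in genes that responded to E2 on average over the 2 genotypes, a choice that in this balanced design does not fix its sign. The average E2 effect was called in 566 genes (4.45%; limma, adjusted p under 0.05), 273 higher and 293 lower. Among the higher genes 212 had a negative interaction, against 60.4% of all genes, with a median of -0.16. Their median E2 change was 0.28 in Pik3cd-/- ovaries and 0.47 in Pik3cd+/- ovaries. Among the lower genes 139 were negative and 154 positive, with a median of 0.01 and median E2 changes of -0.38 in Pik3cd-/- ovaries and -0.42 in Pik3cd+/- ovaries. Of the higher genes 57 were negative and 1 positive at an unadjusted p under 0.05, and of the lower genes 7 were negative and 15 positive. Of all tested genes 5.65% were negative and 1.62% positive at that p. Both tests share the variance estimate of each gene. Genes picked by a small p for the average effect therefore tend to have smaller interaction p-values too, and these counts are not free of the choice. None of the 566 passed the interaction test. The direction of the higher group held under all alternatives tried, with medians from -0.21 to -0.12, while that of the lower group ran from -0.04 to 0.10.

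The study's rule of at least a 2-fold change was joined here with an adjusted p under 0.05 in Pik3cd+/- ovaries (limma). By both conditions 37 genes (0.291%) were E2 targets, 29 higher and 8 lower. Their interaction is fixed in part by that choice, since the Pik3cd+/- change enters both, so it is only described: 28 of the 29 were negative, with median E2 changes of 0.26 in Pik3cd-/- ovaries and 1.23 in Pik3cd+/- ovaries, and all 8 were positive, with -0.67 in Pik3cd-/- ovaries and -1.19 in Pik3cd+/- ovaries.

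Promoters of the leading genes were read for AP-1 and FoxO motifs as well. TGANTCA, the AP-1 site, was in 12 of 82 promoters (14.6%) of the 100 negative genes with the smallest p and in 7 of 77 (9.09%) of the 100 positive ones, against 558 of 10253 (5.44%). GTAAACA, the FoxO core, added after the data were seen, was in 2 of 22 FoxO target promoters (9.09%) and 2 of 21 interferon response promoters (9.52%), against 2.65% of all. The AP-1 site was in 0 of 22 FoxO target promoters, 0 of 17 immediate early promoters and 6 of 21 interferon response promoters (28.6%). Both strands were read, and a promoter could hold several motifs.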

How the data were processed

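Ovarian total RNA was hybridised to 18 Affymetrix arrays, 3 in each of 6 groups. The deposited values are linear intensity per probe set, made by the authors with MAS5 per the submitters' processing notes, whose version and scaling are not given in the sources used here. They were not normalized again. Members, gene lists, motifs and tests were chosen with earlier results of these data known.

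Tests used log2 of the intensity plus 8.58, the 10th percentile of all values, which understates changes of dim genes. Left out were 64 control probe sets, 9160 with no symbol in the platform annotation and 932 with more than 1. Each of 18193 genes was read from the brightest of its probe sets (34945 had a single symbol), and 12711 genes with a group mean above 5.87, the median, were tested. limma 3.58.1 under R 4.3.3 fitted 6 group means to all 18 arrays (eBayes with trend, 12 residual and 3.67 prior degrees of freedom), two-sided, adjusted by Benjamini-Hochberg over all tested genes; the fit was tested on simulated data. The PMSG arrays enter the spread, the pseudocount, the filter and the choice of probe set, but not the contrast itself. The number of arrays limits the precision.

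Named were the 10 genes with the smallest interaction p on each side, without clone or provisional names, up to 2 members of each of 29 lists (5 for the 3 highest and 3 lowest medians), a panel of ovarian genes and Pik3cd. Ifit1, Ifit3, Irf7, Usp18, Gadd45a, Gadd45b, Maff, Cited2, Igf1r, Pik3r1 and list members given without an SE were chosen after their values were seen. The alternatives changed the pseudocount (1 or 64), the filter, the scaling (quantile), the variance trend, the groups fitted, the replicate block, the choice of probe set and the arrays left out; leaving out 2 arrays together was chosen after seeing the data. Same-numbered arrays had correlated deviations between -0.35 and 0.28, over 0.1 in 3 of 18 pairs, so replicate numbers were not taken to pair the arrays.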

Additional observations from a re-analysis of the deposited data

Results flagged for a closer look

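In a pair of lists the mean E2 change went one way on every array of one genotype and the other way on every array of the other. For PI3K pathway components every Pik3cd-/- E2 array lay below the untreated Pik3cd-/- mean and every Pik3cd+/- E2 array above the untreated Pik3cd+/- mean, with a mean interaction of -0.114. But Pik3cd+/- E2 replicate 2 was only 0.012 above that mean. The Pik3cd+/- groups overlapped, as untreated replicate 1 (9.275) exceeded E2 replicates 1 and 2 (9.266 and 9.235, log2). For glycolysis and hypoxia genes the directions were the same, with a mean interaction of -0.183, but 2 of the 3 Pik3cd-/- E2 arrays were nearly level with the untreated Pik3cd-/- mean, at -0.0011 and -0.0071 from it, and replicate 2, an array that stood apart in marker genes, was at -0.142. The difference was not tested for either list.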

How the results depend on the processing

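The interaction calls were 0 in most fits and 1 when only the 4 untreated and E2 groups entered (Ntn4, limma adjusted p = 0.00463). Leaving out 1 array at a time gave 0 to 71 calls, the 71 without Pik3cd-/- E2 replicate 3. With the replicate number as a block there was 1 call (Itih2, limma adjusted p = 0.034), and with the block and only the 4 groups 1 (Ntn4, 0.0265); the arrays share only a number. The average E2 effect was called in 566 genes, 144 with only the 4 groups, 92 with the replicate block and only the 4 groups, 1134 probe sets when each was tested, and 205 to 974 with 1 array left out. The sign of Xaf1 turned with its most variable probe set (4.16), that of Amh after quantile normalization (0.049), and that of Pgr with a pseudocount of 64 (0.11) and after quantile normalization (0.060). With arrays left out, signs turned in 16 named genes, whose values ran from -4.09 to 0.55 for Car3, -3.37 to 0.69 for Adipoq, -3.08 to 0.51 for Fabp4, -1.92 to 0.67 for Retn, -0.89 to 0.12 for H2-Eb1, -0.86 to 0.18 for Wfdc2, -0.82 to 0.10 for Alas2, -0.58 to 0.81 for Pgr, -0.52 to 0.055 for Slc2a4, -0.27 to 0.11 for Foxo1, -0.21 to 1.60 for Inhba, -0.17 to 0.096 for Amh, -0.16 to 0.35 for Esr1, -0.13 to 0.64 for Tppp3, -0.096 to 0.69 for Rsph1 and -0.036 to 0.26 for Inha. The causes were not tested, except that fits with fewer arrays or groups have fewer degrees of freedom. Of the values of named genes under an alternative, 2699 kept direction and side of the threshold, 46 changed sign and 16 came past the threshold, 13 of these without Pik3cd-/- E2 replicate 3. With 3 arrays a group and a median SE of 0.16, small interactions could not be seen.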

Other observations

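Among lists not described above, genes of glucocorticoid action had a median interaction of -0.15, with 3 of 16 at an unadjusted p under 0.05, all negative, against 5.65% of all genes. Cdkn1a and Pdk4 were among these 3 and are FoxO targets as well, so these lists are not separate evidence. The median was -0.06 without Pik3cd-/- E2 replicate 2. Klf9, a Krüppel-like factor induced by glucocorticoids, gave 1451, 968 and 1849 units in Pik3cd-/- ovaries after E2 and 2030, 3202 and 1743 untreated, against 2434, 1633 and 1630 in Pik3cd+/- ovaries after E2 and 1717, 1490 and 1867 untreated (-0.85 ± 0.32). Its replicates were widely spread in Pik3cd-/- ovaries. Of 19 genes of matrix proteolysis, Plau, the urokinase, had -0.89 ± 0.27, and the list median was -0.17, which turned to 0.01 without Pik3cd-/- E2 replicate 2. Ndrg1, a hypoxia-induced gene of the glycolysis and hypoxia list, had -0.84 ± 0.31. Cell-cycle genes had a median of 0.09, with 29 of 36 above 0, against 39.6% of all genes. They were led by the helicase subunit Mcm4 (0.38 ± 0.15). Their median was -0.005 without Pik3cd-/- E2 replicate 2 and -0.05 without replicate 2 of the E2 and untreated Pik3cd-/- groups. Cldn1, a tight-junction protein, had 0.93 ± 0.30, and gave 261, 260 and 137 units in Pik3cd-/- ovaries after E2 and 339, 215 and 250 untreated, against 105, 131 and 120 in Pik3cd+/- ovaries after E2 and 300, 250 and 328 untreated. Runx1, a transcription factor, had -0.92 ± 0.31, with its Pik3cd+/- E2 arrays above all others.

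The largest interaction of all tested genes was that of Adamdec1, a metalloprotease known from macrophages of the gut, at 2.97 ± 1.20, and it was chosen after its values were seen. It gave 311, 159 and 292 units in Pik3cd-/- ovaries after E2 and 126, 36.3 and 23.1 untreated, against 188, 197 and 25.5 in Pik3cd+/- ovaries after E2 and 255, 295 and 89.8 untreated, so the Pik3cd+/- groups overlapped and the Pik3cd-/- groups did not. Its limma adjusted p was 0.671.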
